A study of Mus musculus with 4 samples.

Results

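Myosin heavy chains are the motor subunits of muscle myosin, and 10 of their genes were followed here in cultured mouse myotubes: Myh1, Myh2, Myh3, Myh4, Myh6, Myh7, Myh7b, Myh8 and the nonmuscle Myh9 and Myh10. They were listed by gene name out of 53647 genes in the count tables, but with earlier results of these data known. All 10 passed the filter on low counts that left 15173 genes to test. The data were bulk RNA sequencing of wild-type (WT) primary myotubes, in 2 Control libraries and 2 libraries treated with EDA-A2. EDA-A2 is a ligand of the tumour necrosis factor family that binds the receptor EDA2R, and the study asked which genes respond when that receptor is stimulated in muscle cells. Myoblasts came from limb muscles of pups aged 2 to 3 days, were grown in 20% fetal bovine serum with basic fibroblast growth factor, and were switched to 5% horse serum to differentiate. Recombinant EDA-A2 was given at 250 ng/mL for 24 h, and all cells were harvested 72 h after differentiation began. What the Control cells received in its place is not given in the sources used here, nor is whether the replicates came from separate cultures or litters, so p-values measure only the spread between these libraries.

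Each myosin heavy chain has a motor head that hydrolyses ATP and pulls on actin, and a long coiled-coil tail that packs into the thick filament. Muscle fibres are typed by the heavy chain they make: Myh7 marks slow type I fibres, Myh2 fast type IIa, Myh1 fast type IIx and Myh4 fast type IIb. Myh3, the embryonic chain, and Myh8, the perinatal or neonatal chain, are made by developing and regenerating muscle before adult isoforms replace them. Myh6 is the alpha chain of the heart, Myh7b is a slow-type chain that occurs with Myh7, and Myh9 and Myh10 encode nonmuscle myosins IIA and IIB, which most cells use for adhesion and division.

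In 3 of the genes an intron carries a microRNA of the muscle-enriched kind, and these are shown because all 3 host genes were lower in the EDA-A2 libraries. In the RefSeq sequences, matched to the GRCm39 genome, the 7-base seed is in capitals. miR-208a lies in Myh6 (chr14:55186529-55186550, minus strand), miR-208b in Myh7 (chr14:55213167-55213188, minus strand) and miR-499 in Myh7b (chr2:155464813-155464833, plus strand).
mmu-miR-208a-3p: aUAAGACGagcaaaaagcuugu
mmu-miR-208b-3p: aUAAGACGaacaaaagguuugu
mmu-miR-499-5p: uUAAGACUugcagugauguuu
The first 2 share the seed UAAGACG, and miR-499-5p has UAAGACU. Libraries of polyadenylated RNA do not measure mature microRNAs, and the 3 microRNA genes held at most 1 count in all 4 libraries together, so only their hosts are described below. Myh3 also hosts a microRNA, miR-6923, which had no count.

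Some of the genes are near copies of each other, which bears on how reads can be assigned. The coding sequences of Myh7 and Myh6 were 91.5% identical, those of Myh1 and Myh2 91% and those of Myh9 and Myh10 73.9%, while Myh3 was 80% to 80.9% identical to the other chains of its cluster (Myh8, Myh1, Myh2 and Myh4). The longest exact run that Myh7 and Myh6 share is 245 coding bases, more than both 100-base reads of a pair together, and it is shown because a read pair inside it cannot be placed. It crosses 1 exon junction in each gene, at chr14:55212404-55212804 in Myh7 and chr14:55185784-55186182 in Myh6 (GRCm39, minus strand).
Myh7 and Myh6: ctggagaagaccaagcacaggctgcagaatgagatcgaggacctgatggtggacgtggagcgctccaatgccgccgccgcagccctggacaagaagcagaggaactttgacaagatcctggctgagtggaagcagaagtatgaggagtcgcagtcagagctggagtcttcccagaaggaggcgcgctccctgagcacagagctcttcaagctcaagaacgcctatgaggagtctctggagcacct
For Myh1 and Myh2 the longest shared run is 268 coding bases. Distinct windows of 100 bases were taken over all annotated transcripts of a gene, 12717 for Myh7 and 15366 for Myh6. Those 2 genes shared 806 of them, while their canonical transcripts (the annotation's chosen ones) have 6135 and 6244 bases. The percentages that follow thus depend on how many transcripts are annotated. Windows of 100 bases that also occur in a transcript of another gene made up 6.34% of the windows of Myh7, 6.02% of Myh2, 5.52% of Myh1, 5.25% of Myh6, 3.12% of Myh8, 2.4% of Myh4, 1.01% of Myh3, 0.194% of Myh10, 0.144% of Myh9 and 0% of Myh7b. Pairs that mapped to several places, 4.56% to 4.76% of those in the tables, went to no gene, so the levels of Myh7, Myh2, Myh1 and Myh6 are the least certain.

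Counts on genes summed to 29444155 to 29746863 per library, and scaling factors for composition (TMM, the trimmed mean of M-values) ran from 0.972 to 1.03. A count of 0 in a library of this depth allows up to 0.102 CPM (counts scaled to library size), and intervals for shares cover counting error only. The labelled cell type showed its markers: 8 genes of differentiated myotubes, such as Acta1 and Ttn, summed to 394670 to 424207 normalized counts (counts rescaled by TMM to a common library size) in Control and 317588 to 327596 in EDA-A2. Markers of undifferentiated myoblasts (6 genes, mostly Itga7) summed to 28806 and 29681 in Control and 31782 and 31851 in EDA-A2. Itga7 alone averaged 19681 in Control and 22987 in EDA-A2, and 4 of the 6 genes had log2 fold changes under 0. Markers of dividing cells (6 genes) summed to 22337 to 26522 in Control and 24318 to 24765 in EDA-A2. Genes of both lists had counts in every library. In bulk RNA, fewer myotubes and less RNA per myotube cannot be told apart. Nppa and Myl7, which define atrial cardiomyocytes, had 0 counts in all libraries, and Nppb and Ryr2 had at most 1 count. Of the same cardiomyocyte list, Myoz2 had 6285 and 5487 counts in Control and 5262 and 5627 in EDA-A2. Tnni3 had 32 and 57 in Control and 29 and 26 in EDA-A2. Of the smooth muscle list, the defining heavy chain Myh11 had 5 counts in every library. The 6 genes, mostly Acta2, summed to 20669 and 24396 normalized counts in Control and 26483 and 24720 in EDA-A2. Of the 5 that were tested, 3 had log2 fold changes under 0 and 2 over 0. Tagln was at -0.43 (edgeR adjusted p = 0.0412) and Acta2 at 0.23 (edgeR adjusted p = 0.188). Fibroblast markers (6 genes, mostly Col3a1) summed to 49614 and 51560 in Control and 47321 and 48012 in EDA-A2, with Lum at 0. Endothelial markers summed to at most 36.3 and macrophage markers to at most 371 in any library.

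Together the 10 genes took a smaller part of the RNA in EDA-A2 myotubes. Their summed counts made up 1.45% and 1.43% of all gene counts in Control and 1.12% and 1.04% in EDA-A2. The means were 1.44% ± 0.0162 (SD, n = 2) and 1.08% ± 0.0561 (SD, n = 2), a log2 ratio of -0.41, and the exact two-sided permutation p was 0.333, the smallest that 2 against 2 libraries can give. The groups did not overlap, and the part fell by 24.9%. Without the nonmuscle Myh9 and Myh10 it went from 1.32% ± 0.0114 to 0.961% ± 0.0517 and fell by 27.3%.

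Of the 10 genes, 5 fell, 0 rose and 5 did not pass the test, in edgeR's quasi-likelihood fit over all 15173 genes with Benjamini-Hochberg adjusted p under 0.05. The same edgeR test, at the adjusted threshold, called 2.13% of all genes lower and 2.45% higher, 4.57% in all. At an unadjusted p under 0.05 in edgeR, 8 of the 10 were lower and 0 higher, where 1218 of all 15173 genes were lower. DESeq2 also called 5 of the 10 lower and 0 higher, and of all genes 271 lower and 294 higher. The 5 that fell were Myh3, Myh8, Myh7, Myh6 and Myh7b, the developmental chains and the slow and cardiac chains, and the adult fast Myh1, Myh2 and Myh4 and the nonmuscle Myh9 and Myh10 did not pass. Both EDA-A2 libraries lay under both Control libraries for 8 of the 10 genes, against 22.2% of all genes tested, lay over both for 0 of the 10, against 22.8%, and overlapped for Myh4 and Myh9. The median log2 fold change of the 10 was -0.48, and that of all genes was -0.00. With a Control library left out, none of the 5 passed: adjusted p (edgeR) was 0.147 to 0.213 without Control replicate 1 and 0.0957 to 0.173 without Control replicate 2. In each of those 2 fits, which rest on 3 libraries and take the lone Control to vary like the EDA-A2 pair, 0 of all genes were called lower, although 1184 and 1248 were lower at an unadjusted p under 0.05, among them 6 and 7 of the 10 genes.

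**Figure D1:**
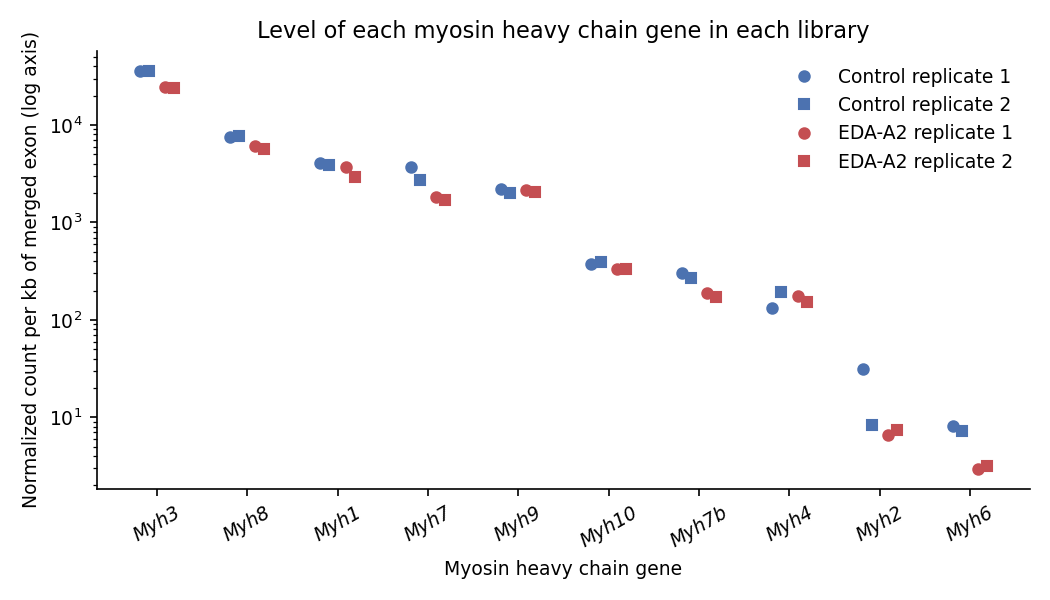
Normalized count per kilobase of merged exon (vertical log axis) of each gene in each library, ordered by the Control mean; circles are replicate 1 and squares replicate 2, blue Control and red EDA-A2. Myh3 stands highest at 23810 to 36105 and Myh6 lowest at 2.95 to 8.06, and the Myh2 value of Control replicate 1, 31.3, is apart from the other 3.

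Per kilobase of merged exon, Myh3 had the highest level in both groups. In Control its normalized count per kilobase was 35858 ± 350 (SD, n = 2), followed by Myh8 at 7651 ± 109, Myh1 at 3951 ± 149 and Myh7 at 3212 ± 658. Myh9 came next at 2120 ± 141 and Myh10 at 383 ± 12.8. Embryonic and perinatal chains thus stood above every adult chain in these newborn-derived cells. The remaining levels were 285 ± 19.6 for Myh7b, 162 ± 42.9 for Myh4, 19.8 ± 16.3 for Myh2 and 7.62 ± 0.622 for Myh6. No neighbours in this Control order overlapped between libraries, with the length of the merged exons. In EDA-A2 the order was the same except that Myh9, at 2118 ± 63.0, stood above Myh7, at 1766 ± 108, and Myh7b and Myh4 overlapped (171 to 190 and 152 to 175). With the length of the canonical transcript instead, Myh7 and Myh1 overlapped in Control, as did Myh2 and Myh6 (10.5 to 39.7 and 11.5 to 12.9), and in EDA-A2 Myh9 and Myh1 overlapped, as did Myh7b and Myh4.

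Myh3, the embryonic chain (ENSMUSG00000020908, chr11:66969126-66993117, plus strand), was lower in EDA-A2. Its raw counts were 229884 and 231656 in Control replicates 1 and 2 and 163322 and 158931 in EDA-A2 replicates 1 and 2. Both treated libraries were far below both controls, and each pair was close. Its log2 fold change was -0.57 ± 0.07 (SE; 95% interval -0.73 to -0.42; edgeR adjusted p = 0.000199), so the normalized count fell by 32.8%. With 1 library left out at a time the log2 fold change ran from -0.59 to -0.56. The 120 bases before its RefSeq start are shown because Myh3 holds the most counts of the 10 genes. They lie in no annotated exon (chr11:66969006-66969125, GRCm39, plus strand, identical to the RefSeq entry on GRCm38.p6), with a TATAAA match at position -29 in capitals.
Myh3 upstream: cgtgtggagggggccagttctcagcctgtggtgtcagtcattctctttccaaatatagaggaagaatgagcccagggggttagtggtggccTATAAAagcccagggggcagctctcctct
The letters TATAAA, on either strand, occurred in 13.6% of 32851 RefSeq promoter windows of 300 bases.

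Myh8, the perinatal chain (ENSMUSG00000055775, chr11:67167746-67199462, plus strand), was lower as well. Its raw counts were 89391 and 93199 in Control and 75633 and 69678 in EDA-A2. Both treated libraries were below both controls, and they differed from each other more than the controls did. Its log2 fold change was -0.38 ± 0.07 (SE; 95% interval -0.54 to -0.23; edgeR adjusted p = 0.00535), and the normalized count fell by 23.4%. The call was lost without EDA-A2 replicate 2 too (adjusted p = 0.123 by edgeR), where the log2 fold change was -0.33. Relative to Myh3, it had 38.9 and 40.2 counts per 100 Myh3 counts in Control and 46.3 and 43.8 in EDA-A2, groups that did not overlap (exact permutation p = 0.333, the smallest possible). The 2 developmental chains together went from 328267 ± 969 to 229446 ± 6753 normalized counts (SD, n = 2) and fell by 30.1%.

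Myh7, the slow beta chain (ENSMUSG00000053093, chr14:55208141-55232084, minus strand), had the largest fall among the 4 abundant muscle chains (Myh3, Myh8, Myh1 and Myh7). Its raw counts were 35648 and 27210 in Control and 18777 and 17174 in EDA-A2. The groups did not overlap, but the Control libraries were far apart, with replicate 1 higher. The log2 fold change was -0.86 ± 0.11 (SE; 95% interval -1.09 to -0.64; edgeR adjusted p = 0.000169), and it was -0.64 without Control replicate 1 and -1.06 without Control replicate 2. RefSeq gives Myh7 more than 1 start, and the stretch before the outermost, at chr14:55232085-55232203 (GRCm39, minus strand), lies in no annotated exon and is shown with an E-box match (CANNTG, bound by the MyoD family) in capitals.
Myh7 upstream: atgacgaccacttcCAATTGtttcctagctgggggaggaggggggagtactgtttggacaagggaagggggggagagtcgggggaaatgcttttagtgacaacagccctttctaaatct
E-boxes are common letters, found in 72.3% of the same RefSeq windows. The antisense RNA Mhrt overlaps 24.7% of the exon bases of Myh7. The strand option of the counting is not given in the sources used here, so reads of the pair cannot be told apart with certainty, and Mhrt itself had 4, 6, 0 and 4 counts.

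Myh6, the cardiac alpha chain (ENSMUSG00000040752, chr14:55179367-55205887, minus strand), was the least counted of the 10. It had 78 and 71 raw counts in Control and 30 and 32 in EDA-A2. The groups did not overlap, and its log2 fold change of -1.32 ± 0.26 (SE; 95% interval -1.87 to -0.77; edgeR adjusted p = 0.00725) was the steepest of the 5 that passed. The call was lost without EDA-A2 replicate 1 (adjusted p = 0.0638 by edgeR). Myh6 had 0.219 and 0.261 counts per 100 Myh7 counts in Control and 0.16 and 0.186 in EDA-A2. Whether some Myh6 counts were misplaced Myh7 reads, given the run shared by both genes, was not tested.

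Myh7b, the slow-type chain that hosts miR-499 (ENSMUSG00000074652, chr2:155453096-155476234, plus strand), shared no 100-base window with another gene. Its raw counts were 1963 and 1820 in Control and 1308 and 1176 in EDA-A2. Both treated libraries were well below both controls. The log2 fold change was -0.66 ± 0.08 (SE; 95% interval -0.84 to -0.49; edgeR adjusted p = 0.00019), and the normalized count fell by 36.8%. The part of its upstream stretch outside exons is short (chr2:155453043-155453095, GRCm39, plus strand) and holds an E-box match in capitals.
Myh7b upstream: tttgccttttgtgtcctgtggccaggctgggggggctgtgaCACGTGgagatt
Exons of Gss and Trpc4ap, on the other strand, overlap 2.84% of the exon bases of Myh7b. The 3 slow and cardiac chains together had 38831 and 29345 normalized counts in Control and 19717 and 18065 in EDA-A2, and fell by 44.6%.

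The adult fast chains did not pass the test in this fit, which has group as its only term. Myh1, the type IIx chain (ENSMUSG00000056328, chr11:67089132-67116631, plus strand), had 35070 and 33973 raw counts in Control and 33332 and 26832 in EDA-A2. The treated libraries were both lower than the controls, but EDA-A2 replicate 1 only just. Its log2 fold change was -0.25 ± 0.09 (SE; 95% interval -0.44 to -0.06; edgeR adjusted p = 0.146). Its log2 fold change depended on the treated library kept: it was -0.42 without EDA-A2 replicate 1 and -0.11 without EDA-A2 replicate 2.

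Myh4, the type IIb chain (ENSMUSG00000057003, chr11:67128336-67151274, plus strand), had 850 and 1267 raw counts in Control and 1183 and 1028 in EDA-A2. Both treated values lay between the controls. The log2 fold change was 0.01 ± 0.13 (SE; edgeR adjusted p = 0.983), and the 95% interval of -0.27 to 0.29 leaves room for a modest change either way. As a share of the summed counts of the 10 genes, Myh4 was 0.198% and 0.299% in Control and 0.358% and 0.331% in EDA-A2, a rise in share that came with the fall of the other chains in the sum.

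Myh2, the type IIa chain (ENSMUSG00000033196, chr11:67061838-67088989, plus strand), turned on 1 library. It had 262 and 71 raw counts in Control replicates 1 and 2 and 58 and 65 in EDA-A2. Control replicate 1 was high, and the other 3 libraries were alike. The log2 fold change was -1.50 ± 0.42 (SE; edgeR adjusted p = 0.0591), and without Control replicate 1 it was -0.25 (adjusted p = 0.61 by edgeR). The same library was the highest for Myl2, a slow and ventricular light chain, with 118 counts beside 48 in Control replicate 2 and 38 and 39 in EDA-A2, and for Myh7. Without EDA-A2 replicate 1 or replicate 2, Myh2 passed the test (adjusted p = 0.0255 and 0.00957 by edgeR), with Control replicate 1 still in the fit. In the first 250 bases upstream of their RefSeq starts, Myh1, Myh2 and Myh4 share 1 exact run of 20 bases, shown as the longest common to the 3 adult fast genes.
Myh1, Myh2 and Myh4 upstream: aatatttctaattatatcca
It began at positions -165, -130 and -163 and, as an exact match, was in 0 of the windows of other genes. Shared upstream runs were not limited to the adult fast genes. The longest runs of Myh8 were 22 bases with Myh1, 17 with Myh4 and 14 with Myh2. A MEF2 site, searched by its name's usual pattern on both strands, matched in Myh8, Myh1 and Myh4 and in 3.19% of all windows, and an NFkB site matched in Myh6 and in 8.46% of all windows. Matches of letters describe these windows and say nothing of binding.

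The nonmuscle chains gave no call. Myh9 (ENSMUSG00000022443, chr15:77644785-77726381, minus strand) had 32054 and 29816 raw counts in Control and 32834 and 31398 in EDA-A2. The groups overlapped, the log2 fold change was -0.00 ± 0.07 (SE; edgeR adjusted p = 0.996), and its 95% interval was -0.16 to 0.15. Myh10 (ENSMUSG00000020900, chr11:68582385-68707470, plus strand) had 4182 and 4480 raw counts in Control and 3960 and 3913 in EDA-A2. Its treated libraries lay under both controls, with a log2 fold change of -0.19 ± 0.07 (SE; edgeR adjusted p = 0.138).

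**Figure D2:**
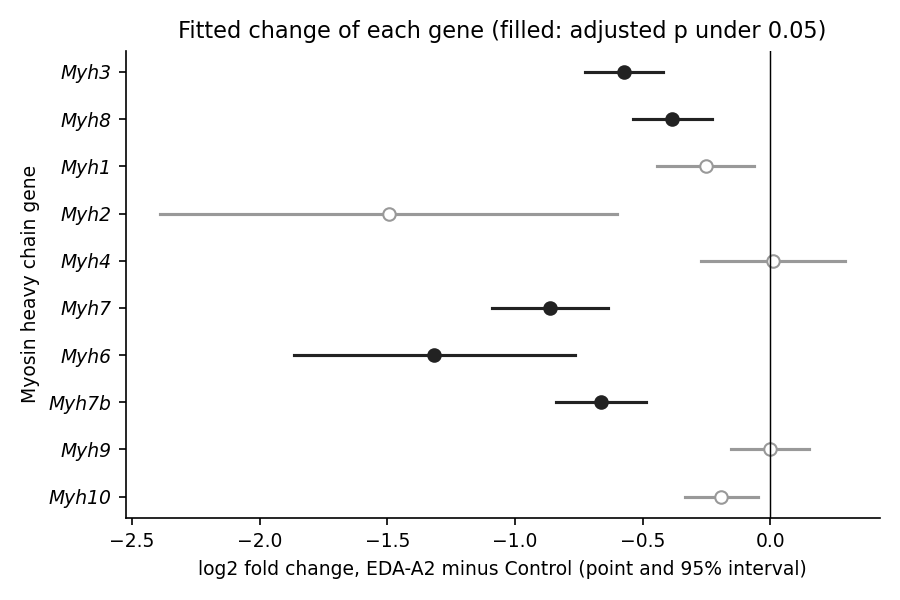
Fitted log2 fold change of each gene, EDA-A2 minus Control (horizontal axis), with its 95% interval; filled points passed the test at an adjusted p under 0.05. Myh3, Myh8, Myh7, Myh6 and Myh7b are filled, at -0.38 to -1.32, while Myh2 at -1.50 is open with the widest interval and Myh4 and Myh9 sit at 0.01 and -0.00.

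Along the cluster on chromosome 11, in the order in which the genes lie, the log2 fold changes were -0.57 for Myh3, -1.50 for Myh2, -0.25 for Myh1, 0.01 for Myh4 and -0.38 for Myh8. The 2 ends of this stretch, the developmental chains, passed the test, and the 3 adult genes between them did not. In the pair on chromosome 14, Myh7 and Myh6 both passed. Of 4 further heavy chain genes, only Myh13, an extraocular chain, passed the filter, with 35, 31, 21 and 11 counts and a log2 fold change of -1.09 ± 0.38 (SE; edgeR adjusted p = 0.138). Myh14 had 11, 8, 5 and 1 counts and Myh15 had 2, 6, 6 and 4 (Control first).

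The make-up of the heavy chain counts shifted by a few percentage points. As a share of the summed counts of the 10 genes, Myh3 was 53.5% and 54.7% in Control and 49.4% and 51.2% in EDA-A2, a difference of -3.79 points. Myh7 was 8.30% and 6.42% in Control and 5.68% and 5.54% in EDA-A2, a difference of -1.75 points. The groups did not overlap for either gene. The Myh7 difference was -0.81 points without Control replicate 1 and -2.69 without Control replicate 2. The share of Myh9 went from 7.46% and 7.04% to 9.94% and 10.1%, that of Myh8 from 20.8% and 22.0% to 22.9% and 22.5%, and that of Myh1 from 8.17% and 8.02% to 10.1% and 8.65%. The Myh8 difference, 1.26 points, was 0.671 without Control replicate 1, and that of Myh1, 1.27 points, was 0.555 without EDA-A2 replicate 1 and 1.99 without EDA-A2 replicate 2. These rises are shares of a smaller sum, since the level of Myh9 overlapped between the groups and that of Myh8 fell. Myh2 overlapped, Myh6 and Myh7b were lower, and Myh4 and Myh10 higher, each by less than 0.25 points. Every non-overlapping share had an exact permutation p of 0.333, the smallest possible with 4 libraries, and the 95% Wilson interval of a share was at most 0.176 points to either side.

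**Figure D3:**
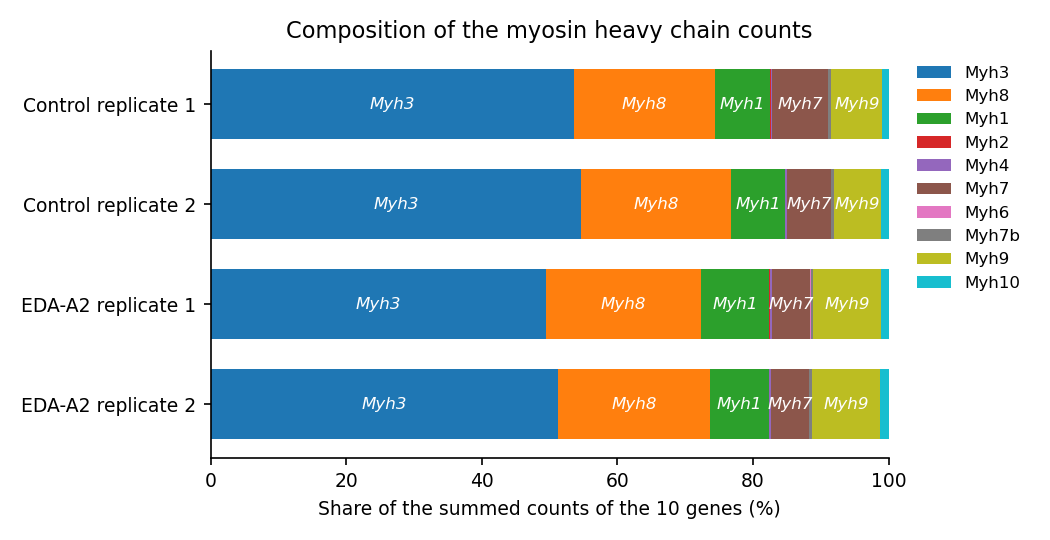
Share of the summed counts of the 10 genes (horizontal axis, percent) taken by each gene in each library, 1 bar per library. Myh3 fills 53.5% and 54.7% of the Control bars and 49.4% and 51.2% of the EDA-A2 bars, and the Myh9 part is wider in EDA-A2.

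Counts favour long transcripts, so the shares were also taken per kilobase of merged exon. On that scale Myh3 was 66.9% ± 0.803 of the summed level in Control and 63.7% ± 1.33 in EDA-A2 (SD, n = 2), and Myh8 14.3% ± 0.515 and 15.5% ± 0.276. The developmental chains thus held 81.1% and 79.2% of the level. Adult fast chains held 7.70% ± 0.06 in Control and 9.18% ± 1.01 in EDA-A2, slow and cardiac chains 6.52% ± 1.12 and 5.15% ± 0.123, and nonmuscle chains 4.66% ± 0.137 and 6.48% ± 0.076. Each gene's share moved in the same direction as with raw counts. Merged exons join all annotated transcripts of a gene, and for Myh8 they span 12161 bases beside 6149 in its canonical transcript. For Myh3 these lengths were 6560 and 6036. Per kilobase of the canonical transcript, Myh3 was 56.2% ± 0.804 in Control and 52.7% ± 1.24 in EDA-A2. Myh8 was 21.8% ± 0.838 and 23.3% ± 0.355. On this scale both genes were closer to their shares of raw counts.

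Most of the light chains, small subunits that bind the neck of each heavy chain, were lower too. Of 9 tested, 7 fell and 0 rose by edgeR, the median being -0.34 on the log2 scale, and DESeq2 gave the same counts (1 was higher at an unadjusted p under 0.05 in edgeR). Mylpf, the fast regulatory light chain, had 129192 and 124403 counts in Control and 92383 and 95915 in EDA-A2 (log2 fold change -0.48 ± 0.07, edgeR adjusted p = 0.000943). Both treated libraries were lower. Myl9 and Myl6, light chains of smooth muscle and nonmuscle myosin, fell by 0.50 and 0.30 on the log2 scale (edgeR adjusted p = 0.0105 and 0.0238), while the nonmuscle heavy chain Myh9 did not pass the test. Myl3, the slow essential light chain, had 0 counts in all libraries.

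Partners of the thick filament and factors that assemble or degrade it moved in both directions. Of 14 tested, 3 fell and 1 rose, with a median of -0.13. Trim63, which encodes the ubiquitin ligase MuRF1 that marks heavy chains for degradation, had 1955 and 2053 counts in Control and 3519 and 3861 in EDA-A2. Both treated libraries were well above the controls, with a log2 fold change of 0.83 ± 0.07 (edgeR adjusted p = 7.62e-06). Smyd1, a methyltransferase needed for thick filament assembly, and Mybph, a myosin-binding protein, fell by 0.36 and 0.34 on the log2 scale (edgeR adjusted p = 0.0103 and 0.0117). The last of the 3, the M-band gene Myom3, fell by 0.29 (edgeR adjusted p = 0.0219) and is named after its value was seen.

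Among 18 regulators of which heavy chain a fibre makes, 2 fell and 0 rose by edgeR, with a median of -0.10. At an unadjusted p under 0.05, 4 were lower and 3 higher, and DESeq2 called 1 lower and 0 higher. Vgll2, a cofactor of TEAD transcription factors, had 267 and 283 counts in Control and 122 and 119 in EDA-A2. The treated libraries were below the controls with little spread, and the log2 fold change was -1.24 ± 0.14 (edgeR adjusted p = 0.000101). Myf6, the MyoD-family factor MRF4, had 220 and 250 counts in Control and 157 and 158 in EDA-A2 (log2 fold change -0.63 ± 0.14, edgeR adjusted p = 0.0195).

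Genes that accompany the fast or the slow chains in a fibre did not split cleanly. Of 9 fast partners tested, 4 fell and 1 rose, with a median of -0.16. Mylpf and the fast troponin C gene Tnnc2 fell, the latter by 0.40 on the log2 scale (edgeR adjusted p = 0.0114), and Actn3, the Z-disc actinin of fast fibres, rose by 0.33 (edgeR adjusted p = 0.0149). Of 8 slow partners tested, 1 fell, Tnni1, the slow troponin I gene, by 0.43 (edgeR adjusted p = 0.00238), and 0 rose, with a median of -0.28. By unadjusted p, 6 of the 8 were lower and 0 higher, and DESeq2 called 4 lower and 0 higher. Tnnc1 and Tpm3 were next, with log2 fold changes of -0.28 and -0.28 (edgeR adjusted p = 0.0526 and 0.0557). Both lists share members with the light chains and the thick filament list, so their counts are not separate evidence. Over all related genes, each counted once, 17 passed by edgeR. The lists held 14, 9, 18, 9 and 8 tested genes, some of them listed more than once, and Myh13 was counted with them. Beside this count and those per list, edgeR called 2.13% of all 15173 genes lower and 2.45% higher, 4.57% in all. The count of 17 was smaller in every fit with 1 library left out, as given in the closing section.

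**Figure D4:**
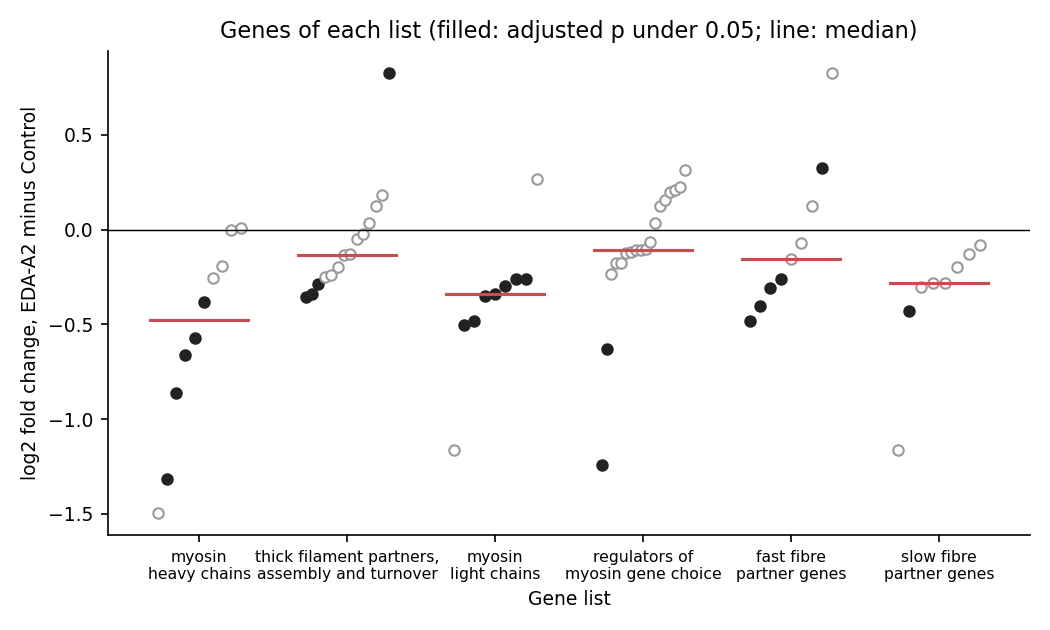
Log2 fold change, EDA-A2 minus Control (vertical axis), of the tested genes of each list, sorted within a list; filled points passed the test and the red line is the median. The medians are -0.48 for the heavy chains, -0.13 for thick filament partners, -0.34 for light chains, -0.10 for regulators, -0.16 for fast and -0.28 for slow partners, and Trim63 stands alone at 0.83 in its list.

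Some other muscle markers fell too. Of the 8 genes of differentiated myotubes, 2 fell, Actn2 and Acta1, by 0.65 and 0.52 on the log2 scale (edgeR adjusted p = 5.29e-05 and 0.00104), while Mymk, the fusion factor myomaker, was at -0.01 and Myog at -0.18 (edgeR adjusted p = 0.958 and 0.36). Of the 6 myoblast markers 1 rose, Vcam1, by 0.53 on the log2 scale, and 1 fell, Cdh15, by 0.47 (edgeR adjusted p = 0.0025 and 0.00318). None of the 6 markers of dividing cells passed by edgeR or DESeq2, and 0 had an unadjusted p under 0.05. The part of these markers in the heavy chain result was not tested.

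By distance between profiles (log2 CPM, each gene centred on its mean over the 4 libraries), the 5 genes most like Myh3 were Acyp1, Bambi, Tubb2a, Dock3 and Npnt, at 0.0361 to 0.0672. Acyp1, an acylphosphatase, had 809 and 802 normalized counts in Control and 565 and 538 in EDA-A2. Tubb2a, a beta tubulin, had 4276 and 4307 in Control and 2970 and 2972 in EDA-A2. With 4 libraries such a likeness mostly reflects the fall between the groups and is a description only.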

How the data were processed

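Bulk RNA sequencing of 4 libraries of mouse primary myotubes was analysed, 2 Control and 2 EDA-A2. Per the labels and the study's methods, the authors checked reads with FastQC 0.11.9 and MultiQC 1.12, trimmed them with Trim Galore 0.6.5, mapped them to GRCm39 with STAR 2.7.3a and counted them with HTSeq 0.11.1. The annotation release and strand option are not given in the sources used here. The deposited values are raw counts, 1 table per library with a row per Ensembl gene, not normalized. Lines that name no gene stayed out of library sizes and tests: 6.68% to 7.4% of pairs in no gene, 0.946% to 0.986% ambiguous and 4.56% to 4.76% not unique. Gene names came from GENCODE, which matched 52610 of 53647 IDs.

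Counts were fitted with edgeR 4.0.16 in R 4.3.3 (TMM, filterByExpr with a minimum of 10 and a total of 15, glmQLFTest, group as the only term), with p-values adjusted over the 15173 genes tested and a threshold of 0.05. Standard errors are the log2 fold change over the square root of F, and intervals use the fit's degrees of freedom. Shares were compared by exact permutation over the 4 libraries. DESeq2 1.42.0 and the other alternatives are described in the closing section. On simulated counts edgeR recovered 193 of 200 genes given a log2 change of 1 (96.5%, of 14980 tested) with 4 false calls, and DESeq2 recovered 180. The simulation gave every gene the same spread between libraries (dispersion 0.00384) and changed only well-counted genes. It does not show recovery or false calls for genes with wider spread or smaller changes. Named genes were all 10 heavy chains, the 3 genes of smallest p in each related list (1 of them is not reported here) and the 5 profiles nearest to the most counted chain, plus markers that a statement turns on. The 10 genes and all lists were chosen with earlier results of these data known. Promoter and microRNA sequences are from RefSeq, exons and coding sequences from GENCODE on GRCm39. Protein sequences were not used here, and identity is between coding sequences.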

Additional observations from a re-analysis of the deposited data

How the results depend on the processing

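With 2 libraries per group, the calls rest on the fit's shared estimate of spread. The log2 fold changes of the 5 called heavy chains were below 0 under every alternative run. The count of heavy chains called, 5, was 1 (Myh3) with no filter beyond 1 count in total, where 25545 genes were tested and adjusted p of the other 4 was 0.0574 to 0.0925 (edgeR), and 0 to 6 with 1 library left out. It was 5 with DESeq2 size factors, upper quartile factors, the DESeq2 Wald test, total counts, a minimum of 10 counts in every library, length and GC offsets, and protein-coding genes. Of the related genes, 17 were called, 3 with no filter and 0 to 8 with 1 library left out. The cause was not tested. The fall in the share of Myh3, -3.79 points, was -2.28 among muscle chains alone, -3.14 to -3.49 per unit of length and -4.69 to -2.88 with 1 library left out. Total counts in place of TMM moved the median of all genes from -0.00 to 0.05 and the genes called from 323 lower and 371 higher to 194 and 485, and no filter gave 22 and 64.

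The labels give both groups replicate numbers 1 and 2, but nothing says that equal numbers share a culture, and over 15173 genes the deviations of same-numbered libraries correlated at 0.0598. With the replicate number as a block, 7 heavy chains were called, and 7 with length and GC offsets as well: the 5, Myh1 (adjusted p = 0.0458 and 0.035, edgeR) and Myh2 (0.00605 and 1.1e-08). Over all genes the block called 529 lower and 537 higher, and with offsets 713 and 579. Related genes called were 22 and 23.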
